A study of Mus musculus with 12 samples.

Results

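Stressed mice that had a running wheel were set against stressed mice kept without one, by RNA sequencing of the ventral hippocampus, to ask what running did to gene expression in stressed mice whatever their behavioural response. The comparison held 9 of the study's 12 mice, chosen by their group labels. The 6 running mice were 3 stress-susceptible mice whose response to the wheel was labelled effective (SES, mice 9, 10 and 12) and 3 whose response was labelled ineffective (SER, mice 6, 19 and 20). The 3 sedentary mice (SS, mice 18, 19 and 21) were stress-susceptible and had no wheel. The other 3 mice of the study were unstressed controls (C, mice 2, 8 and 12), whose libraries entered the fit for its estimate of the spread and whose values are given beside the comparison. All were male wild-type C57BL/6J mice, obtained naive at 8 weeks of age. SES, SER and SS mice shared the stressor, restraint in a ventilated tube for 2 hours a day on 14 days, which C mice did not receive. Access to the wheel lasted 14 days by the titles of the samples and 4 weeks by the protocol, and no source used here settles the difference. The behavioural measure behind the labels susceptible, effective and ineffective is not given in the sources used here.

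The ventral hippocampus is the pole of the hippocampus tied most closely to anxiety and to the control of the stress axis. Corticosterone released during stress acts there through 2 nuclear receptors, the glucocorticoid receptor (Nr3c1) and the mineralocorticoid receptor (Nr3c2), which bind DNA and change the transcription of target genes in neurons and glia. Voluntary running in rodents is known for raising hippocampal brain-derived neurotrophic factor (Bdnf) and for increasing the birth of neurons in the dentate gyrus. In bulk tissue such as this, fewer cells of a type and less RNA per cell cannot be told apart.

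Libraries held 9323607 to 15707516 counts, and levels are given as counts scaled to library size with TMM factors (CPM). Markers of excitatory neurons (Slc17a7, 1170 to 1480 CPM in running mice and 1400 to 1560 CPM in SS mice), of the dentate gyrus (Prox1) and of CA1 (Fibcd1) were present in every library. The ventral markers Dcn, Trhr and Grp were each lowest in SES mouse 10 among running mice and in SS mouse 18 among SS mice. Dcn had 15.8 to 99.1 CPM in running mice and 24.4, 97.9 and 84.6 CPM in SS mice 18, 19 and 21. The thalamic markers Tcf7l2 and Prkcd had 38.5 and 59.9 CPM in SS mouse 18 and 33.5 and 84.5 CPM in C mouse 2. In running mice they had 7.58 to 10.2 and 11.2 to 17.9 CPM. Lars2, Zc3h7a, Cmss1 and Filip1l were set aside, because all 4 were listed at 0 in every SER library and had counts in every other library. SS mouse 18 and the pair of SS mice 19 and 21 stood apart from each other. The Pearson correlation of log2 CPM of SS mouse 18 was 0.955 with SS mouse 19 and 0.951 with SS mouse 21, against 0.991 between SS mice 19 and 21. With the 6 running mice it was 0.972 to 0.98 for SS mouse 18. It was 0.971 to 0.978 for SS mouse 19 and 0.967 to 0.974 for SS mouse 21. SS mouse 18 was thus no less like the running mice than the other SS mice were. Malat1, a long noncoding RNA held in the nucleus, had 1084, 1385 and 1992 CPM in SES, 1415, 1489 and 995 CPM in SER, 511, 3813 and 5270 CPM in SS mice 18, 19 and 21, and 508, 266 and 496 CPM in C. The running mice thus lay between SS mouse 18 and the other SS mice, and above all C mice. Ttr, which encodes transthyretin and marks the choroid plexus, had 834, 4711 and 2491 CPM in SES, 36.9, 1093 and 63.7 CPM in SER, 5151, 5.80 and 12.1 CPM in SS and 3564, 2.82 and 20.4 CPM in C. Within SER, SS and C its values differed by orders of magnitude between mice. The counts of calls are therefore also given without SS mouse 18. The part of SS mouse 18, of nuclear RNA, of choroid plexus and of the region dissected in the results was not tested.

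**Figure D1:**
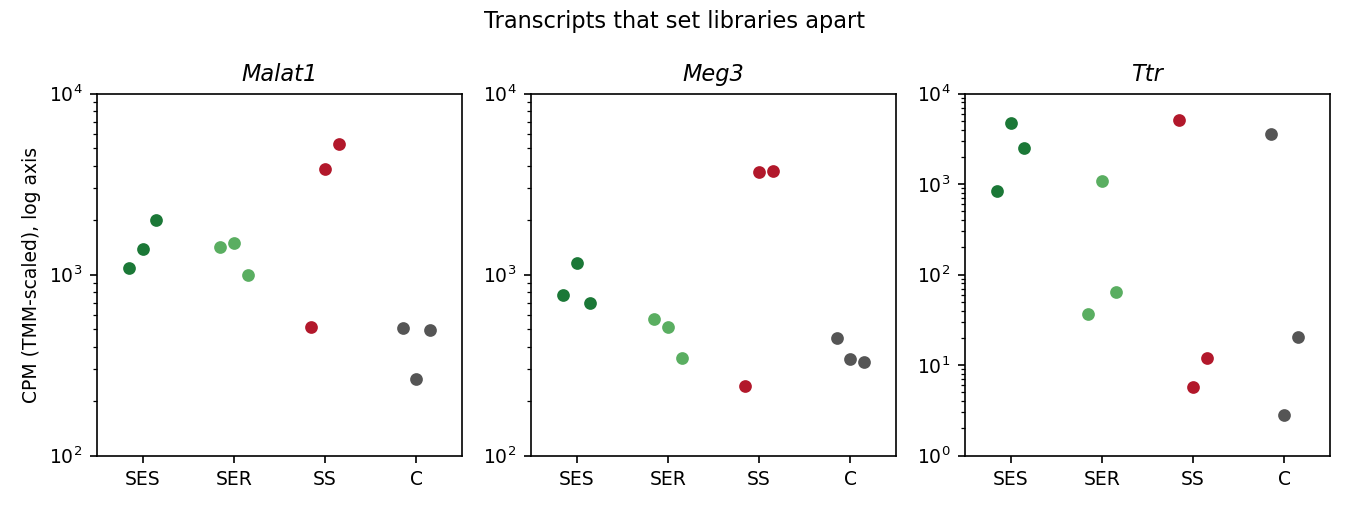
CPM of Malat1, Meg3 and Ttr (log axes, a separate scale for each gene) in each mouse of the SES, SER, SS and C groups, 1 point per mouse. SS mouse 18, the leftmost SS point, was at 511 CPM for Malat1 and 5151 CPM for Ttr, while SS mice 19 and 21 were at 3813 and 5270 CPM for Malat1 and at 5.80 and 12.1 CPM for Ttr.

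Between running and SS mice 1 gene of 14548 tested passed the threshold (adjusted p under 0.05 in edgeR's quasi-likelihood test with Benjamini-Hochberg adjustment), which is 0.00687% of all genes. That gene, Pou3f1, was higher in running mice, and no gene was called lower. At an unadjusted p under 0.05 there were 2498 genes, 17.2% of those tested, and the adjusted p of the genes ranked next was 0.111. All 6 running mice were above all 3 SS mice for 477 genes (3.28%) and below them for 400 genes (2.75%), 877 in all (6.03%). Without SS mouse 18 the same test called 2484 of 14758 genes (16.8%), 1089 higher (7.38%) and 1395 lower (9.45%) in running mice, and Pou3f1 was among them. SS mouse 18 was the SS mouse nearest to the running mean in 261 of the 477 higher genes and 189 of the 400 lower genes. The share over all genes was not counted, so nothing is read from these counts. Other tools gave other counts, with 1 gene by limma-voom, 407 by DESeq2's Wald test and 3995 by limma-voom with sample quality weights, in which SS mouse 18 had the lowest weight of the 12 libraries at 0.217.

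Pou3f1 encodes a POU-domain transcription factor known in mice from Schwann cell myelination and from early neural commitment, and in the adult hippocampus it marks CA1 pyramidal neurons. The gene lies at chr4:124657646-124660655 (mm10) and the deposited data hold 1 transcript of it. Its level was 104, 108 and 94.4 CPM in SES, 119, 106 and 115 CPM in SER, 59.6, 67.3 and 50.8 CPM in SS mice 18, 19 and 21, and 76.2, 71.1 and 90.8 CPM in C. The lowest running mouse was above the highest SS mouse and above the highest C mouse, and SS mouse 18 lay within the SS range. Running mice averaged 108 ± 8.65 CPM (SD, n = 6), against 59.2 ± 8.27 CPM in SS mice (SD, n = 3). Pou3f1 rose by 0.86 ± 0.11 on the log2 scale (standard error; adjusted p = 0.0222), and without SS mouse 18 the value was 0.87 (adjusted p = 3.70e-04). The values were 0.79 in SES against SS and 0.94 in SER against SS, and the difference between SES and SER was -0.15 ± 0.12 (adjusted p = 0.999). Against C mice, the log2 fold change was 0.44 ± 0.10 in running mice (adjusted p = 0.0495) and -0.42 ± 0.12 in SS mice (adjusted p = 0.0429). These 2 contrasts with C share the C mice, and those with SS share the SS mice. The call was lost without SES mouse 9 (adjusted p = 0.0928), SES mouse 10 (0.0827), SER mouse 6 (0.0910), SER mouse 20 (0.0986), SS mouse 21 (0.221) or C mouse 2 (0.0532), with the log2 fold change between 0.77 and 0.97 over 27 alternatives.

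**Figure D2:**
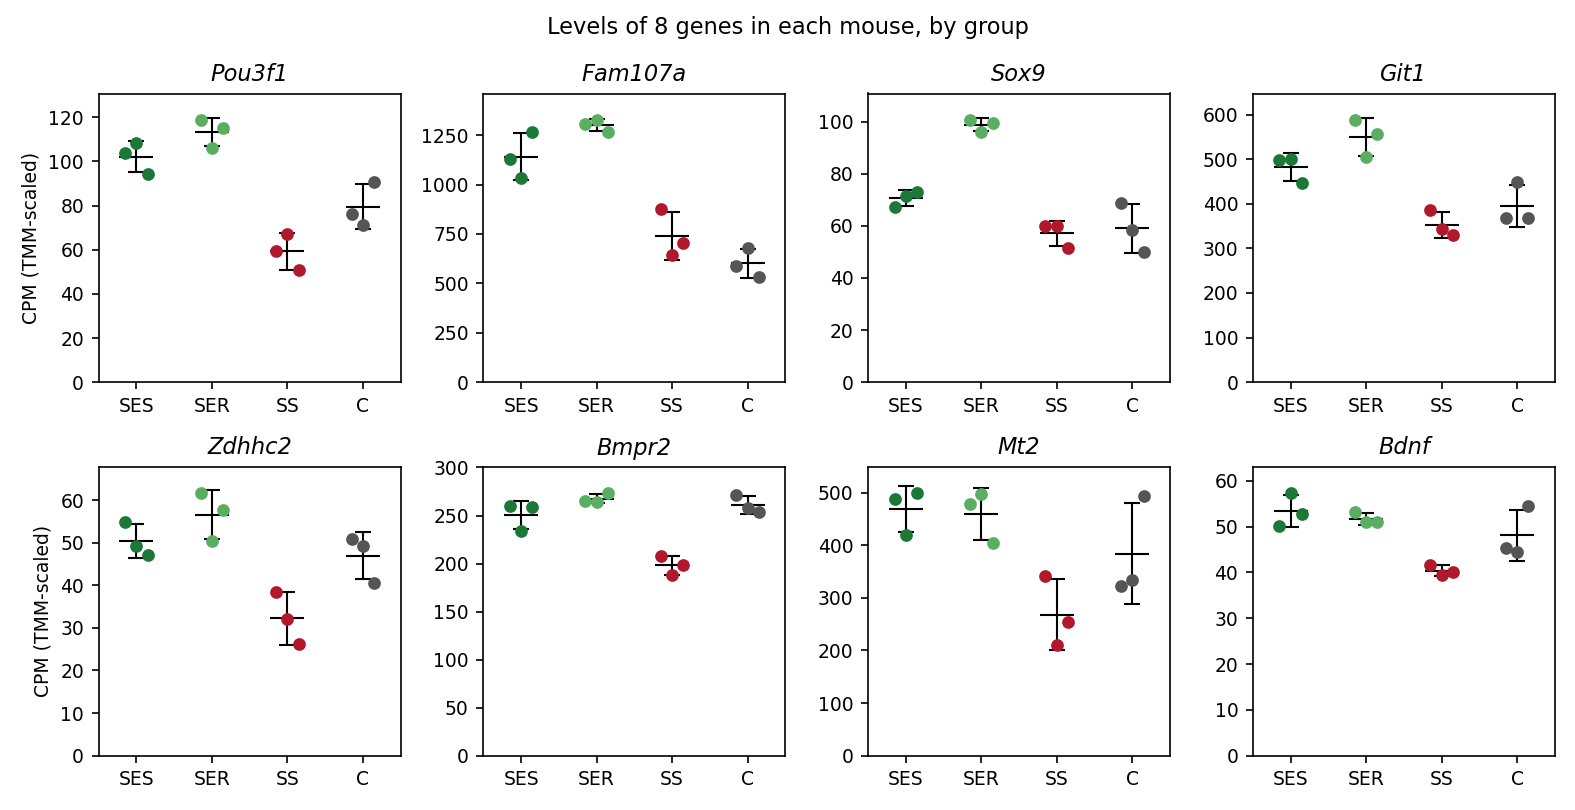
CPM in each mouse (points) with the mean and SD of each group of 3 (line and bars), for Pou3f1, Fam107a, Sox9, Git1, Zdhhc2, Bmpr2, Mt2 and Bdnf, with axes that start at 0. In all 8 genes the 3 SES and 3 SER mice lay above the 3 SS mice, and for Pou3f1 the running mice at 94.4 to 119 CPM also lay above the C mice at 71.1 to 90.8 CPM.

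The higher genes ranked after Pou3f1 by p and described here each had an adjusted p of 0.111, so none was called. Fam107a, an actin-bundling protein known in mice as a stress- and glucocorticoid-induced gene of the hippocampus, had 1127, 1031 and 1267 CPM in SES, 1307, 1328 and 1266 CPM in SER, 875, 645 and 702 CPM in SS and 589, 679 and 534 CPM in C. The groups did not overlap, SS mouse 18 was the SS mouse nearest to the running mice, and C mice overlapped SS mice. The log2 fold change against SS was 0.72 ± 0.11, and 0.86 without SS mouse 18 (adjusted p = 1.18e-04). Running against C, Fam107a rose by 1.02 ± 0.11 (adjusted p = 0.00392), while SS against C gave 0.30 ± 0.12 (adjusted p = 0.131). It was called beside Pou3f1 when no filter on low counts was used (adjusted p = 0.0383).

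Sox9 encodes an HMG-box transcription factor found in astrocytes and in neural stem cells. It had 67.3, 71.4 and 73.1 CPM in SES, 101, 95.9 and 99.5 CPM in SER, 59.9, 59.9 and 51.5 CPM in SS and 68.6, 58.4 and 50.1 CPM in C. All running mice were above the SS mice, and the 3 SER mice were above the 3 SES mice. The log2 fold change of running against SS was 0.55 ± 0.10, with 0.31 in SES against SS and 0.79 in SER against SS. SER alone against SS called Sox9 (adjusted p = 0.0485) and Pou3f1 (adjusted p = 0.0315) and no other gene, 0.0137% of all genes. The difference between SES and SER, -0.48 ± 0.11, had an adjusted p of 0.999. Against C mice, Sox9 rose in running mice by 0.50 ± 0.10 (adjusted p = 0.0291).

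Git1 and Zdhhc2 act at the postsynaptic membrane, Git1 as an Arf GTPase-activating scaffold and Zdhhc2 as a palmitoyltransferase of the scaffold PSD-95. Git1 averaged 516 ± 50.1 CPM in running mice (SD, n = 6) and 352 ± 29.4 CPM in SS mice (SD, n = 3), a log2 fold change of 0.55 ± 0.09. Its lowest running value was 446 CPM, in SES mouse 12, and its highest SS value was 385 CPM, in SS mouse 18. Zdhhc2 had 55.0, 49.1 and 47.1 CPM in SES, 61.6, 50.3 and 57.8 CPM in SER and 38.4, 32 and 26.1 CPM in SS, a log2 fold change of 0.73 ± 0.13. C mice, at 51.0, 49.3 and 40.6 CPM, overlapped the running mice, and Zdhhc2 fell in SS against C by 0.55 ± 0.14 on the log2 scale (adjusted p = 0.0348).

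Bmpr2, a type II receptor for bone morphogenetic proteins, and Mzt1, a small subunit of the gamma-tubulin complex that seeds microtubules, had running and C mice close together and SS mice lowest. Bmpr2 averaged 259 ± 13.5 CPM in running mice, 198 ± 9.85 CPM in SS mice and 261 ± 9.19 CPM in C mice (SD, n = 6, 3 and 3). Mzt1 averaged 119 ± 5.88 CPM in running mice, 89.1 ± 8.44 CPM in SS mice and 120 ± 3.72 CPM in C mice. Both were called lower in SS against C (adjusted p = 0.022 for each), and running against C gave log2 fold changes of -0.01 for Bmpr2 and -0.02 for Mzt1.

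Of the 8 genes on the lower side that ranked first by p, Tomm6os, Tyk2 and Strada had an adjusted p of 0.111 and the other 5 had 0.118. Tyk2, a Janus kinase of cytokine receptors, had 11.6, 13.3 and 10.7 CPM in SES, 11.8, 10.1 and 10.6 CPM in SER, 16.1, 19.5 and 19.5 CPM in SS and 10.1, 8.88 and 10.4 CPM in C. The running mice lay below the SS mice without overlap and overlapped the C mice. The log2 fold change was -0.70 ± 0.12 against SS, and Tyk2 rose in SS mice against C by 0.91 ± 0.14 (adjusted p = 0.022). Strada, a pseudokinase that activates the kinase LKB1, averaged 15.4 ± 1.51 CPM in running mice, 24.5 ± 3.84 CPM in SS mice and 15.6 ± 2.33 CPM in C mice, with a log2 fold change against SS of -0.67 ± 0.12. Tomm6os had 5.31 ± 0.643 CPM in running mice and 10.2 ± 0.496 CPM in SS mice (-0.94 ± 0.15). It is annotated opposite Tomm6, a subunit of the mitochondrial import pore, and overlaps Frs3 and Prickle4 as well, and the strand setting of the counting is not given, so its reads cannot be assigned with certainty. Tomm6 itself had a log2 fold change of -0.09 ± 0.13.

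Of the other 5 lower genes, Caprin2, an RNA-binding protein, had the largest log2 fold change at -1.36 ± 0.28, with 1.43 to 5.30 CPM in running mice and 6.75 to 9.38 CPM in SS mice. Ap1s3, a subunit of the AP-1 clathrin adaptor, was at -1.17 ± 0.22, with 6.98 CPM in SES mouse 10, the highest running mouse, and 7.26 CPM in SS mouse 18, the lowest SS mouse. Glt8d1, a glycosyltransferase, was at -0.62 ± 0.13, and Shc2, an adaptor of receptor tyrosine kinases in neurons, was at -0.50 ± 0.10. Prpf40b, a splicing factor, was at -0.71 ± 0.14 but its groups overlapped, since SES mouse 10 had 42.8 CPM and SS mouse 18 had 38.2 CPM. The annotated spans of Glt8d1 and Prpf40b overlap those of neighbouring genes.

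**Figure D3:**
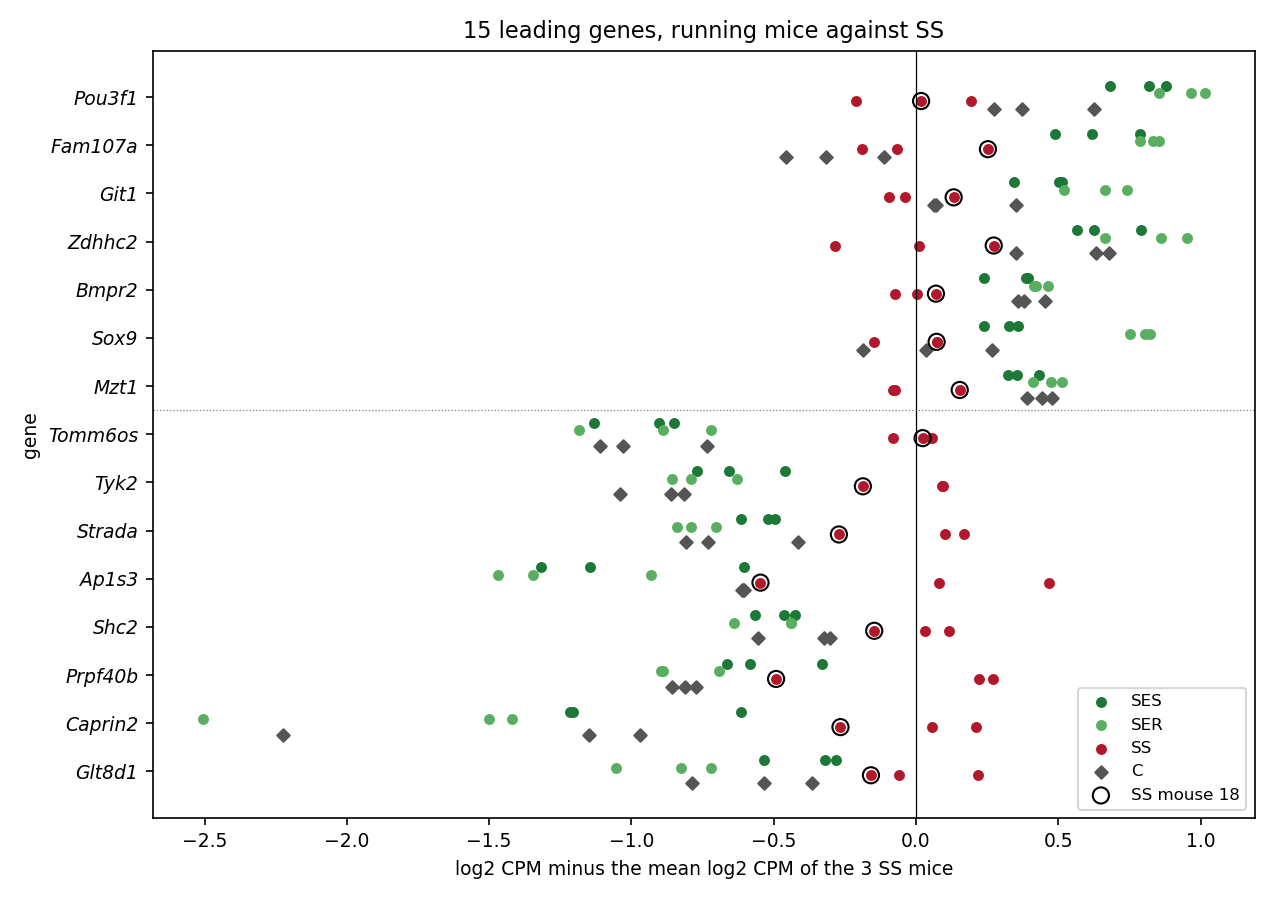
The 15 leading genes reported here, each mouse placed by its log2 CPM minus the mean of the 3 SS mice (x axis), with SES, SER, SS and C mice in rows from top to bottom within each gene and SS mouse 18 circled. The running mice do not overlap the SS mice in 14 of the 15 genes, the exception being Prpf40b. The genes were picked by the smallest p of this contrast, which favours such separation. Among all genes, running mice were above all SS mice for 3.28% and below them for 2.75%.

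Set against unstressed mice, the leading genes differed in their order of groups. Running against C was not called while SS against C was called for Zdhhc2, Bmpr2, Mzt1 and 7 of the 8 lower genes, the exception being Ap1s3. Running mice were above C mice by the test for Pou3f1, Fam107a and Sox9, of which SS against C was called for Pou3f1 alone. Among all genes, running against C called 273 (1.88%, 157 higher, 1.08%, and 116 lower, 0.797%) and SS against C called 1423 (9.78%, 759 higher, 5.22%, and 664 lower, 4.56%). All running mice were above all C mice for 6.58% of genes and below them for 7.29%. Of the 477 genes in which all running mice were above all SS mice, running and C mice overlapped in 373, running mice were above all C mice in 66 and below all C mice in 38. Of the 400 lower genes, running and C mice overlapped in 335, running mice were below all C mice in 49 and above them in 16. These counts rest on the same running mice in both contrasts. The leading genes, the 477 and the 400 were also picked by their difference from the SS mice, which enter SS against C as well. That choice favours genes in which SS mice differ from C mice, and no test of the pattern was made.

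**Figure D4:**
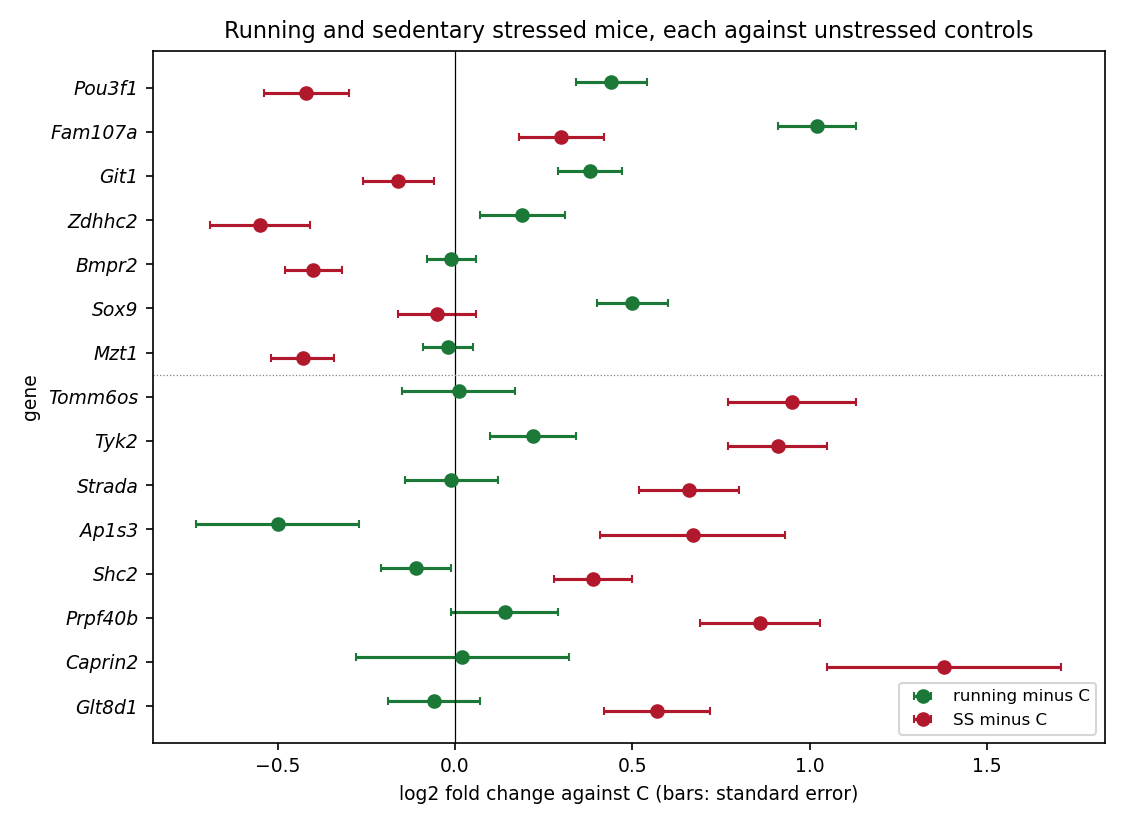
Log2 fold change against C (x axis, with standard error) of running mice (green) and of SS mice (red) for the same 15 genes. Tyk2 was at 0.22 in running mice and 0.91 in SS mice, whereas Fam107a was at 1.02 in running mice and 0.30 in SS mice.

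Glucocorticoid-induced genes were the list to which Fam107a belongs. Of its 24 members, all measured, none was called, 15 had a log2 fold change above 0, the median was 0.15 beside -0.015 over all genes, and 3 were above all SS mice in all running mice, against 3.28% of all genes. These were Fam107a, Mt2 and Sult1a1. Mt2, a metallothionein that binds zinc and copper, had 489, 419 and 499 CPM in SES, 479, 497 and 404 CPM in SER, 342, 210 and 253 CPM in SS and 322, 335 and 494 CPM in C. SS mouse 18 was again nearest to the running mice, and C mice overlapped them. The log2 fold change of Mt2 was 0.79 ± 0.16 (adjusted p = 0.118), and 1.01 without SS mouse 18 (adjusted p = 8.07e-04). Sult1a1, a sulfotransferase, averaged 30.9 ± 5.90 CPM in running mice (SD, n = 6) and 19.0 ± 1.35 CPM in SS mice (SD, n = 3), and was called higher in running mice against C (log2 fold change 1.26, adjusted p = 0.0167).

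With SS mouse 18 in the fit no member of this list was called, beside 1 of all 14548 genes. Without SS mouse 18, 9 members were called higher, among them Fam107a, Mt2, Sult1a1, Klf9 (log2 fold change 0.61) and Cdkn1a (0.84), beside 7.38% of all genes. Per1 was called lower (-0.51), beside 9.45% of all genes. The median was then 0.35. Fkbp5, a co-chaperone that limits receptor activity and is itself induced by the receptor, had 117, 110 and 156 CPM in SES, 113, 124 and 110 CPM in SER, 145, 79.4 and 85.4 CPM in SS and 68.8, 62.0 and 98.3 CPM in C. Its log2 fold change against SS was 0.24 ± 0.19 (adjusted p = 0.543) with SS mouse 18 and 0.56 without it (adjusted p = 0.0285). The metallothionein list, which shares Mt1 and Mt2 with this one, had 3 measured members and a median of 0.50. Mt1 and Mt2 are close copies, whose reads the counting could have divided.

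The promoter windows of Fam107a and Mt2 are shown because these genes led the glucocorticoid-induced list. Each window runs from 250 bases before to 50 bases after an annotated start site, from RefSeq on GRCm38.p6 (mm10), written 5′ to 3′ on the gene's strand. Capitals mark a match to the glucocorticoid response element, the inverted repeat that the receptor binds as a dimer, searched on both strands. The windows are chr14:8309728-8310027 and chr14:8317558-8317857, both on the minus strand, and chr8:94172368-94172667 on the plus strand.
Fam107a, downstream start: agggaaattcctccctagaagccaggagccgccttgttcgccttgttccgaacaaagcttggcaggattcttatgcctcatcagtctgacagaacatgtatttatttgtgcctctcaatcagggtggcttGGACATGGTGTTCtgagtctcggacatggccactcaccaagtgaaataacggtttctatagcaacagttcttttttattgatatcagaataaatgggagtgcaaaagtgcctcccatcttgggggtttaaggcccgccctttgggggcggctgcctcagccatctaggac
Fam107a, upstream start: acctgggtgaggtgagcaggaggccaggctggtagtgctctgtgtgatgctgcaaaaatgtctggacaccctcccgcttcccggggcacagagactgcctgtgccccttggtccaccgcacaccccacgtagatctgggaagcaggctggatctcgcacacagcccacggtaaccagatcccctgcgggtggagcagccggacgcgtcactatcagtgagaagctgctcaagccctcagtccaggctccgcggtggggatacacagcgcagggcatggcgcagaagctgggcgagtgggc
Mt2: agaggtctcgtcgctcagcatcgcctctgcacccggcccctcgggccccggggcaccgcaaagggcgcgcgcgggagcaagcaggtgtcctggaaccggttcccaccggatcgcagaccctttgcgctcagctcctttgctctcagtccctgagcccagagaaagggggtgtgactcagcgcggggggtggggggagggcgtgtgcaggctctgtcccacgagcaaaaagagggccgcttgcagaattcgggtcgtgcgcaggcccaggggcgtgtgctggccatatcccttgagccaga
The downstream Fam107a window held 1 match, GGACATGGTGTTC, and the other windows held none. The element was found in 156 of 32817 promoter windows (0.475%) and in 5 of the 35 windows of the list (14.3%). These 5 belong to 4 of the 23 genes of the list that have a window. Overlapping Fam107a windows that hold the same match are counted apart among them. The E-box CACGTG, found in 7.15% of all windows, was in none of the 3 printed ones. The deposited counts hold 1 Fam107a transcript and do not tell which start was used, and a match describes letters in a window and shows neither binding nor use of the site.

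Receptors and ligands of the stress axis were listed apart. Of 10 measured genes none was called, 8 had a log2 fold change above 0 and 3 were above all SS mice in all running mice, beside 3.28% of all genes. Nr3c1 had 108, 91.4 and 89.5 CPM in SES, 117, 92.3 and 130 CPM in SER and 82.3, 89.2 and 80.7 CPM in SS. The groups met without overlap, with 89.5 CPM in SES mouse 12 next to 89.2 CPM in SS mouse 19, and the log2 fold change was 0.31 ± 0.12 (adjusted p = 0.222). Nr3c2, the mineralocorticoid receptor, overlapped widely (0.17 ± 0.14, adjusted p = 0.572). Crh, the hypothalamic releasing hormone that interneurons of the hippocampus also make, was low at 2.20 to 3.76 CPM in running mice, 1.36 to 1.74 CPM in SS mice and 2.02 to 2.26 CPM in C mice (0.83 ± 0.25, adjusted p = 0.144). Ncoa1, a receptor coactivator, was the other non-overlapping member (0.22 ± 0.07), and it was called higher in running mice against C (0.39, adjusted p = 0.0291).

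Bdnf, the growth factor most often tied to running, had 50.2, 57.3 and 52.7 CPM in SES, 53.2, 51.0 and 51.0 CPM in SER, 41.7, 39.4 and 40.0 CPM in SS and 45.3, 44.5 and 54.5 CPM in C. All running mice were above all SS mice, and the values of the 3 SS mice lay close together. The log2 fold change was 0.38 ± 0.09 (adjusted p = 0.118), with 0.40 in SES and 0.36 in SER, and 0.41 without SS mouse 18 (adjusted p = 0.0136). It was a sum over 11 transcripts. Its receptor Ntrk2 was at 0.33 (adjusted p = 0.145), Igf1, an insulin-like growth factor, at 0.25, and Vegfa, a growth factor of blood vessels, at -0.18, the last 2 with adjusted p of 0.307 and 0.599. In all, 19 neurotrophic and exercise-linked genes were measured, none was called, and the median was 0.05. Bdnf alone was above all SS mice in all running mice, beside 3.28% of all genes.

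Immediate early genes, which neuronal activity switches on within minutes, showed no call among 26. Of these, 21 had a log2 fold change above 0 and the median was 0.23, but none separated the groups. Fos had 13.8, 13.0 and 17.4 CPM in SES, 18.3, 13.8 and 36.0 CPM in SER and 3.78, 13.0 and 17.1 CPM in SS, so that SS mouse 18 was lowest and SER mouse 20 highest. Its log2 fold change was 0.68 ± 0.37 (adjusted p = 0.376), and 0.28 without SS mouse 18. The median of the list without that mouse was 0.11, and the 1 call was then Jun, lower in running mice (-0.43, adjusted p = 0.0132).

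Astrocyte genes leaned above 0 in 20 of 21 measured members, with a median of 0.18, and 4 members were above all SS mice in all running mice, beside 3.28% of all genes. Besides Sox9 these included Aldh1l1, a folate enzyme (0.35 ± 0.10, adjusted p = 0.140), and the lipoprotein Clu (0.18 ± 0.07, adjusted p = 0.225). The summed level of the list was 14060 to 18360 CPM in running mice, 12250 to 13960 CPM in SS mice and 12470 to 13460 CPM in C mice, and no member was at 0 in any library. Abundant genes weigh most in this sum. Over the list's genes, the median log2 difference from the SS mean was 0.05 in both SES mouse 10 and SS mouse 18. The common markers Gfap (457 to 749 CPM in running mice, 297 to 681 CPM in SS mice) and Aqp4 (128 to 196 and 113 to 175 CPM) overlapped. Without SS mouse 18, 7 members were called higher, among them the intermediate filament Gfap (0.77) and the glutamate transporter Slc1a2 (0.53), and Mfge8 was called lower (-0.30), beside 7.38% and 9.45% of all genes. The list medians were 0.13 in SES against SS and 0.26 in SER against SS.

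CA1 and subiculum genes, to which Pou3f1 belongs, had the highest median among lists with at least 10 measured members, 0.45 over 16 genes. Besides Pou3f1, 2 members were above all SS mice, beside 3.28% of all genes. Spink8, a protease inhibitor and CA1 marker, had 26.7 to 34.4 CPM in running mice and 23, 16.1 and 11 CPM in SS mice (0.85 ± 0.26, adjusted p = 0.151). Man1a, a Golgi mannosidase, had 39.4 to 55.4 CPM in running mice and 29.6, 32.2 and 25.7 CPM in SS mice (0.69 ± 0.18, adjusted p = 0.122). The list's other classic markers overlapped, with Wfs1 at 0.49 (adjusted p = 0.397) and Fibcd1 at 0.41 (adjusted p = 0.321). Its summed level was 992 to 1444 CPM in running mice and 778, 1239 and 1081 CPM in SS mice, so SS mouse 18 was lowest, and the median without SS mouse 18 was 0.25. Of the neighbouring fields, 14 dentate gyrus genes had a median of -0.17, and -0.23 without SS mouse 18, and C1ql2, a synaptic organizer, was at -0.49 ± 0.15 (adjusted p = 0.147). The median of 14 CA2 and CA3 genes turned sign with that mouse, at -0.15 with it and 0.07 without it. Whether the CA1 content of the dissected pieces moved with Pou3f1 was not tested.

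Postsynaptic scaffolds had 5 of 24 measured members above all SS mice in all running mice, beside 3.28% of all genes. These were Git1, Homer1, Homer2, Dlgap1 and Dlg4, and the list's median was 0.23. Homer1, which links glutamate receptors to calcium stores, had 134, 153 and 119 CPM in SES, 154, 125 and 123 CPM in SER and 102, 98.1 and 101 CPM in SS (0.42 ± 0.11, adjusted p = 0.118). Dlg4, which encodes PSD-95, had 1090 to 1390 CPM in running mice and 1036 to 1072 CPM in SS mice (0.22 ± 0.08, adjusted p = 0.184), and it was called higher in running mice against C (0.44, adjusted p = 0.0206). None of the scaffolds was called against SS with all libraries, and 6 were called higher and 1 lower, Nlgn2, without SS mouse 18, beside 7.38% and 9.45% of all genes.

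GABA-A receptor subunits, which form the main inhibitory channel of the brain, had 4 of 13 measured members above all SS mice, beside 3.28% of all genes. Gabrb1 and Gabrb2 were among them, the median was 0.19 and none was called. Gabrb2 had 329, 293 and 290 CPM in SES, 288, 267 and 310 CPM in SER, 246, 242 and 257 CPM in SS and 342, 339 and 320 CPM in C. Running mice thus lay between SS and C mice, with some overlap with C (0.25 ± 0.07 against SS, adjusted p = 0.135), and Gabrb2 fell in SS against C by 0.43 on the log2 scale (adjusted p = 0.022). Gabrb1 was at 34.7 to 44.1 CPM in running mice, 26.8 to 31.7 CPM in SS mice and 31.1 to 34.7 CPM in C mice (0.40 ± 0.09, adjusted p = 0.118). Pvalb, the marker of fast-spiking interneurons, had 41.1 to 50.8 CPM in running mice, 32.3 to 40.8 CPM in SS mice and 52.9 to 71.8 CPM in C mice, with no overlap between the groups. Its log2 fold change was 0.31 ± 0.12 against SS (adjusted p = 0.213), and it fell in running mice against C by 0.48 (adjusted p = 0.0495).

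Other neuronal lists held medians near or below that of all genes. The median was -0.17 for 22 glutamate receptor subunits (-0.30 without SS mouse 18) and -0.10 for 25 synaptic vesicle release genes, with no member separating the groups in either list. Among 27 potassium channels 2 were above and 2 below all SS mice, beside 3.28% and 2.75% of all genes. Kcnk2, a mechanosensitive leak channel, had 68.4 to 77.9 CPM in running mice and 58.5 to 61.9 CPM in SS mice (0.31 ± 0.08, adjusted p = 0.118). Adult neurogenesis genes had a median of 0.03 over 14 members, and without SS mouse 18, 4 of them were called lower in running mice, including Dcx (-0.68), a microtubule protein of migrating young neurons, and Neurod1 (-0.40), a transcription factor of new granule cells, beside 9.45% of all genes.

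Cytosolic ribosomal protein genes had 13 of 57 members above all SS mice in all running mice, against 3.28% of all genes, and 54 of 57 had a log2 fold change above 0. The median was 0.23, none was called, and Rps14, the member with the smallest p, was at 0.45 ± 0.11 (adjusted p = 0.118). Its level was 668, 713 and 706 CPM in SES, 782, 988 and 874 CPM in SER and 667, 491 and 558 CPM in SS, so SES mouse 9 stood just above SS mouse 18. The list's summed level overlapped, at 20700 to 25900 CPM in running mice and 21020, 17260 and 18730 CPM in SS mice 18, 19 and 21. SS mouse 18 was above SES mouse 10 (20700 CPM) and SES mouse 12 (20730 CPM). The list's medians were 0.15 in SES against SS and 0.32 in SER against SS. Against C, its medians were -0.20 in running mice and -0.44 in SS mice. Without SS mouse 18, 32 members were called higher, beside 7.38% of all genes. Ribosomal protein genes have many processed copies in the genome, so their counts are uncertain. Nuclear-encoded respiratory chain and ATP synthase genes had a median of 0.07 over 59 members, with no call and no separation.

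Sterol synthesis genes leaned the other way, with 18 of 22 measured members below 0 and a median of -0.16. Their summed level was 999.9 to 1190 CPM in running mice and 1074, 1225 and 1220 CPM in SS mice 18, 19 and 21. SS mouse 18 thus lay within the running range, and SS mice 19 and 21 lay above it. Dhcr7 and Pmvk, enzymes of cholesterol synthesis, were among 3 members below all SS mice in all running mice, beside 2.75% of all genes. Dhcr7 had 19, 18.2 and 21.8 CPM in SES, 17.2, 22.8 and 21.2 CPM in SER, 24.7, 24.3 and 27.7 CPM in SS and 23.6, 21.5 and 19.7 CPM in C (-0.36 ± 0.12, adjusted p = 0.162). Running mice overlapped C mice, and SER mouse 19 at 22.8 CPM was the running mouse nearest to the SS mice. Without SS mouse 18, 5 members were called lower, beside 9.45% of all genes, among them Sqle, Lss and Nsdhl. Against C the median was -0.31 in running mice and -0.16 in SS mice. Of 24 glycolysis and lactate genes, Gapdh and Pfkp were below all SS mice, beside 2.75% of all genes, the median was -0.06 and none was called.

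The 2 running groups were compared in the same fit. No gene differed between SES and SER by edgeR's test, with 534 genes (3.67%) below an unadjusted p of 0.05. The pseudogene Atp6v0c-ps2 was the 1 call of DESeq2's Wald test. SES alone against SS called no gene (1316 at an unadjusted p under 0.05, 9.05%). Among these 15 leading genes, the SES minus SER differences were -0.48 ± 0.11 for Sox9, 0.48 ± 0.15 for Glt8d1 and 0.73 ± 0.35 for Caprin2, and at most 0.30 in size for the others, each with an adjusted p of 0.999. SES and SER values against SS are not independent, since they share the SS mice.

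The medians of some lists moved with which SS mice were in the fit. The 11 nuclear-retained long noncoding RNAs had a median of -0.89 with all SS mice and -1.36 without SS mouse 18, with 8 members then called lower, beside 9.45% of all genes, among them Malat1 (-1.71) and Meg3 (-2.52). With SS mice 19 and 21 left out, Malat1 was at 1.46 and Meg3 at 1.43. Meg3, an imprinted noncoding RNA, had 345 to 1162 CPM in running mice and 242, 3707 and 3721 CPM in SS mice. Choroid plexus and ependymal genes had a median of -0.44 with SS mouse 18 and 3.52 without it, and their summed level ran from 255 to 6270 CPM in running mice, at 6896, 107 and 113 CPM in SS mice and from 151 to 4775 CPM in C mice. Ttr's log2 fold change was -0.74 ± 1.78 with SS mouse 18 and 6.86 without it (adjusted p = 0.0713). Myelin genes had a median of -0.03 with and 0.53 without SS mouse 18, and their summed level was 4979 to 8930 CPM in running mice and 12130, 4063 and 3858 CPM in SS mice 18, 19 and 21.

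**Figure D5:**
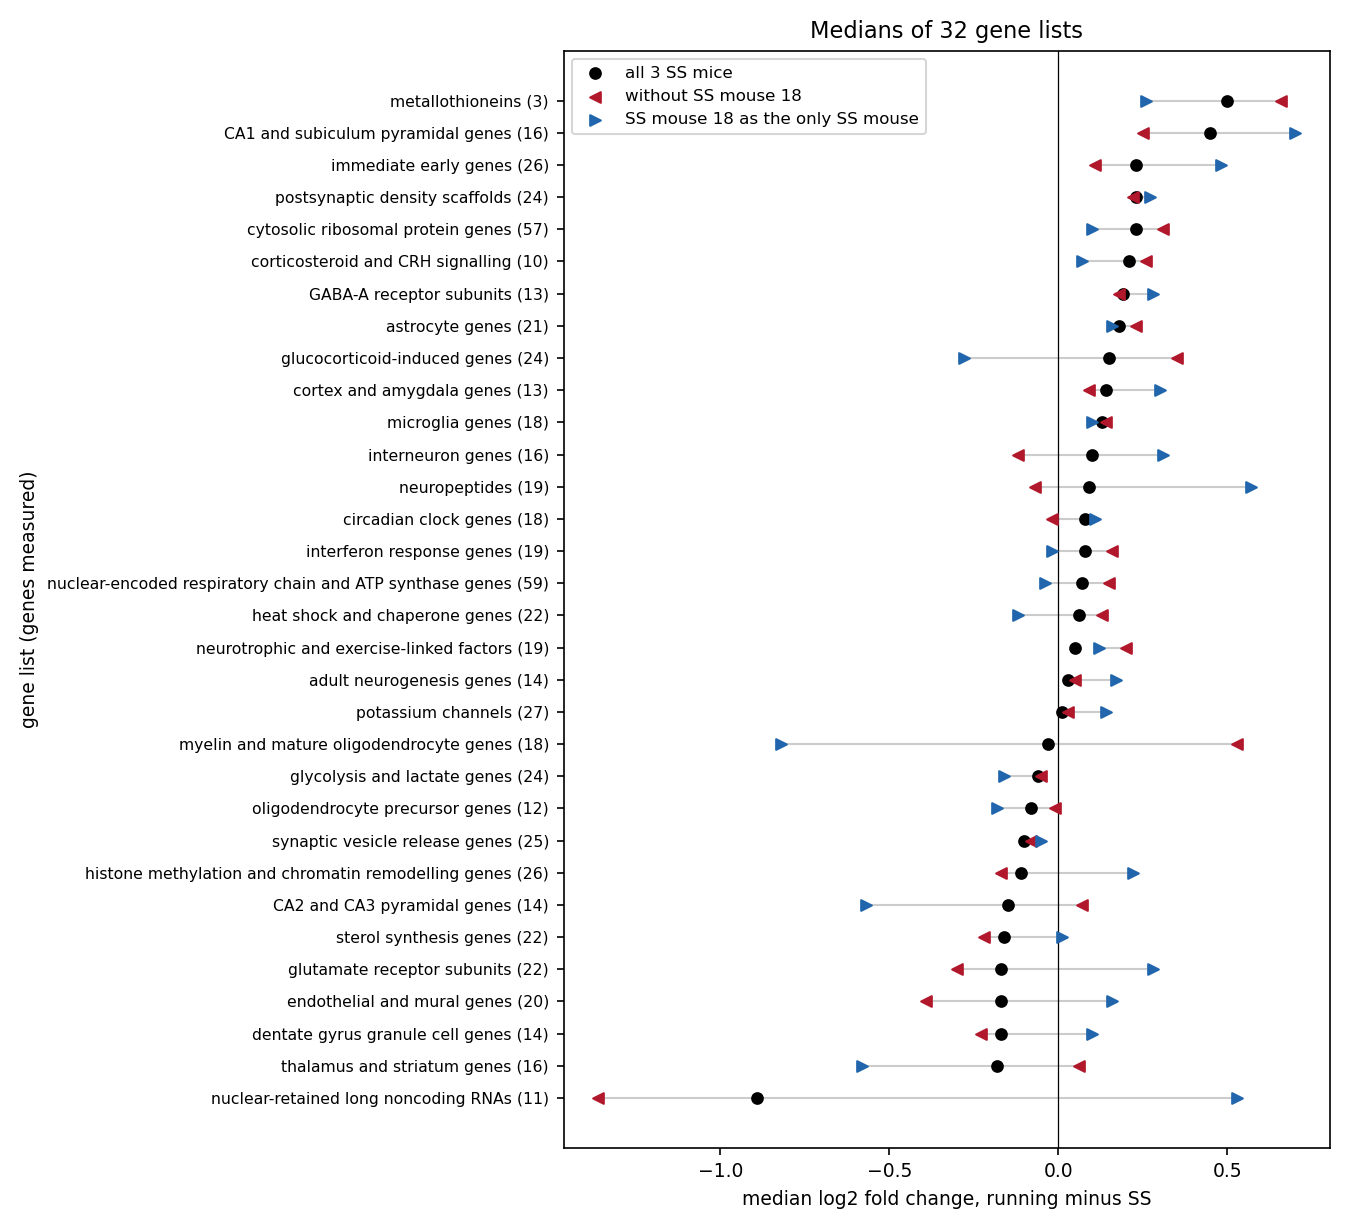
Median log2 fold change of running minus SS (x axis) for 32 gene lists, with the number of genes measured in brackets, from all 3 SS mice (black), without SS mouse 18 (red) and without SS mice 19 and 21 (blue). The choroid plexus list, at 3.52 without SS mouse 18, lies beyond the axis and is left out, and postsynaptic scaffolds, GABA-A subunits and astrocyte genes stayed above 0 in all 3.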

How the data were processed

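RNA of the ventral hippocampus was sequenced from 12 mice, 3 in each of the groups SES, SER, SS and C, 1 library a mouse, from 1.3 µg of total RNA with the NEBNext Ultra II Directional kit, per the labels' protocols. The authors deposited estimated counts, all whole and not normalized, for 33299 RefSeq transcripts of 23183 symbols. They were treated as estimated counts because reads of a gene may have been divided among isoforms, and rounding changed no value. TopHat and mm10 are named in the submitters' processing notes. The program that counted reads is not given in the sources used here, nor is its use of strand or the annotation's release, which leaves reads of overlapping, antisense and near-identical genes uncertain.

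Counts were summed per symbol, Lars2, Zc3h7a, Cmss1 and Filip1l were removed, and genes were filtered with filterByExpr (minimum count 10), which left 14548. The test was edgeR 4.0.16's quasi-likelihood F test (R 4.3.3) with TMM factors, 4 group means and 12 libraries (8 residual degrees of freedom, biological coefficient of variation 15.7%), for the mean of SES and SER minus SS. P-values were adjusted by Benjamini-Hochberg over all genes, with calls at 0.05, and every adjusted p is from this test unless another tool is named. Standard errors come from the F statistic, and CPM means have the SD over mice. Totals were 9323607 to 15707516 counts, and a count of 0 allows 3 counts, 0.192 to 0.330 CPM, for counting error only. No 2 libraries of a group agreed within sampling noise (chi-square per gene 4.18 to 43.2).

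The members of the comparison and the 33 gene lists were chosen with earlier results of these data known, and no pattern here is independent support for those results. Lists are described by counts and medians, with no test. Genes named are the 8 higher and the 8 lower genes with the smallest p where fewer than 5 were called, the member with the smallest p of each list or up to 4 called members, and Bdnf, Nr3c1, Nr3c2, Fkbp5, Fos, Ttr, Malat1, Pou3f1, Sox9 and Fam107a. No predicted gene, microRNA or small nucleolar RNA was named under this rule. Some genes of this rule are not reported here. Other list members are named where their groups did not overlap or as examples, and these were chosen after their values were seen. Mouse numbers name animals and pair no mice. Alternatives were other scalings, filters, tools (DESeq2 1.42.0, limma 3.58.1), libraries in the fit, covariates, transcripts and leaving out each library. Counts and list medians without SS mouse 18 were extended after seeing the data. The procedure was tested on simulated data, in which 59 of 100 genes changed 1.5-fold and 93 of 100 changed 2-fold were recovered. In the same data 9 unchanged genes were called. The simulated libraries shared 1 set of means apart from the changed genes, so none stood apart as SS mouse 18 did.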

Additional observations from a re-analysis of the deposited data

Results flagged for a closer look

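Of 83 values tested over the 6 running mice (50 named genes and 33 list medians), 6 had a highest or lowest mouse far from the other 5. Chance alone marks about 1 in 20 such groups. Bmpr2 was lowest in SES mouse 10, at 233.8 CPM. Fkbp5 was highest in SES mouse 12, at 156.0 CPM. Fos was highest in SER mouse 20, at 36.03 CPM. The median log2 difference from the SS mean was highest in SES mouse 10 for interferon response genes, at 0.69. The same measure was lowest in SES mouse 12 for microglia genes, at -0.26. For sterol synthesis genes it was lowest in SES mouse 10, at -0.28.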

How the results depend on the processing

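The count of genes called between running and SS mice, 1 in the test as reported, was 1 with DESeq2 size factors, upper-quartile factors, the stricter filter, limma-voom and both fits of the 9 stressed libraries. It was 2 with no filter on low counts (Fam107a and Pou3f1), 407 by DESeq2's Wald test (209 higher, 198 lower), 3995 with sample quality weights (1834 higher, 2161 lower), 6 with Lars2, Zc3h7a, Cmss1 and Filip1l kept (these 4 lower, Pou3f1 and Fam107a higher), 0 with Malat1 as a covariate, 3 with Ttr as a covariate (Pou3f1, Car12, Tuba1c), 0 without SS mice 19 and 21, 0 in SES alone, 2 in SER alone and 2 for transcripts as deposited (Pik3cg and Plekhb1, with Pou3f1 at an adjusted p of 0.0708). Leaving out 1 library gave 0 to 2484 calls: 2484 without SS mouse 18, 2 without SS mouse 19 (Pou3f1 and Rmrp), and 0 without SES mouse 9 or 10, SER mouse 6 or 20, SS mouse 21 or C mouse 2. Pou3f1 was called in 18 of 27 alternatives, with adjusted p from 1.63e-10 to 0.221, and was also not called with Malat1 as a covariate (0.0563), without SS mice 19 and 21 (0.106) or in SES alone (0.204). SES against SER gave 0 calls except 1 by DESeq2's Wald test, 4 with the 4 genes kept and 1 for transcripts (Pik3cg), and 0 to 0 when leaving out 1 library. It could not be fitted where SES and SER were 1 group. Over all alternatives, values of the 50 named genes kept sign and call in 1217 cases, gained a call in 108, lost it in 9 and reversed sign in 14. Ttr was at 3.06 by limma-voom, 5.49 with quality weights, 2.12 with Malat1 as a covariate, 0.64 in SES alone and between -2.23 and 6.86 when leaving out 1 library, the highest without SS mouse 18. Without SS mice 19 and 21, Grik2 was at 0.16, Unc13b at 0.12, Vtn at 0.18, Meg3 at 1.43, Setd1a at 0.11, Nr3c2 at -0.09, Fkbp5 at -0.23 and Malat1 at 1.46. Nr3c2 was at -0.01 in SES alone. Of 891 list medians under alternatives, 41 moved by more than the spread between mice. The cause of these changes was not tested. No paired analysis was possible, because the design pairs no running mouse with an SS mouse. The mouse number 19, found in both SER and SS, does not make a pair. Depth limited genes with few counts, such as Crh at 1.36 to 3.76 CPM in the running and SS mice.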

Other observations

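Other gene groups had medians near that of all genes and no called member. Of 18 microglia genes 13 were above 0 (median 0.13), and C1qb, a complement subunit, had 56.2 to 67.0 CPM in running mice, 48.3 to 55.7 CPM in SS mice and 44.1 to 57.4 CPM in C mice (log2 fold change 0.26 ± 0.10, adjusted p = 0.203). Among 19 interferon response genes (median 0.08), Ifih1, a sensor of viral RNA, had 3.74 to 4.76 CPM in running mice, 2.38 to 3.17 CPM in SS mice and 4.88 to 5.56 CPM in C mice, so running mice lay between the others without overlap. Its log2 fold change was 0.63 ± 0.18 against SS (adjusted p = 0.135), and it fell in SS against C by 0.96 (adjusted p = 0.023). Hspe1, a mitochondrial chaperonin, had the smallest p of 22 heat shock and chaperone genes (median 0.06), at 0.28 ± 0.08. Circadian clock genes (18, median 0.08), interneuron genes (16, 0.10) and neuropeptides (19, 0.09) were alike in their medians, and all 3 medians turned negative without SS mouse 18 (-0.02, -0.12 and -0.07 in the same order).

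Genes of other cells and regions were as follows. Oligodendrocyte precursor genes had a median of -0.08 over 12 members, and endothelial and mural genes -0.17 over 20, of which 17 were below 0 (-0.39 without SS mouse 18). Thalamus and striatum genes had a median of -0.18 over 16, which turned to 0.06 without SS mouse 18, with the thalamic marker Prkcd at 11.2 to 17.9 CPM in running mice, 9.06 to 59.9 CPM in SS mice and 8.74 to 84.5 CPM in C mice. Cortex and amygdala genes had a median of 0.14 over 13, and Cdh9, a cadherin, was below all SS mice in all running mice (-0.37 ± 0.12, adjusted p = 0.161). Histone methylation and chromatin remodelling genes had a median of -0.11 over 26. Of these, Arid1b, a subunit of the BAF remodelling complex, had 123 to 140 CPM in running mice, 112 to 120 CPM in SS mice and 93.5 to 103 CPM in C mice, and was called higher in running mice against C (0.40, adjusted p = 0.0209).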
